A study of Mus musculus with 2 samples.

Results

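The 9 genes described here, Tcf7, Lef1, Id3, Slamf6, Il7r, S1pr1, Bcl2, Satb1 and Bach2, are widely used to mark naive and memory T cells. They were taken by symbol from the 32285 genes of the count tables, and each was found. The tables come from droplet-based single-cell RNA sequencing of CD45+ leukocytes sorted from mouse tumours, with 1 library labelled Ythdf2 KO and 1 library labelled WT. Both are labelled as tumours from C57BL/6 mice, and the library labelled Ythdf2 KO is elsewhere described as coming from cKO mice. Which cells carried the deletion, what drove it, the age of the mice, the tumour type and the number of animals are not given in the sources used here. Below, values under the KO label are those of the library labelled Ythdf2 KO, and values under the WT label those of the library labelled WT. With 1 library per genotype no test between genotypes was possible, and every interval covers counting error only.

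The products of these genes work at different steps of T cell life. Tcf7 and Lef1 encode the HMG-box factors TCF-1 and LEF-1, which maintain naive T cells and the self-renewing T cells of chronic infection and tumours. Id3 encodes an inhibitor of E-protein factors, Satb1 a chromatin organiser, and Bach2 a repressor that restrains effector differentiation. Slamf6 is a homotypic SLAM-family receptor found on stem-like T cells, and Il7r is the alpha chain of the survival receptor for interleukin 7. S1pr1 is the receptor that guides lymphocytes out of tissue towards sphingosine 1-phosphate in blood, and Bcl2 is the anti-apoptotic protein that gave its family its name.

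All 9 are annotated as protein-coding in GENCODE vM21, on the mouse build GRCm38. Tcf7 (ENSMUSG00000000782) spans chr11:52252371-52283014 on the minus strand, and Lef1 (ENSMUSG00000027985) chr3:131110471-131224356 on the plus strand. Id3 (ENSMUSG00000007872) spans chr4:136143497-136145755, Slamf6 (ENSMUSG00000015314) chr1:171917515-171953170 and Bach2 (ENSMUSG00000040270) chr4:32238804-32586108, each on the plus strand. On the minus strand, Il7r (ENSMUSG00000003882) spans chr15:9505788-9530176, S1pr1 (ENSMUSG00000045092) chr3:115710433-115715072, Bcl2 (ENSMUSG00000057329) chr1:106538178-106714274 and Satb1 (ENSMUSG00000023927) chr17:51736187-51833290.

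Upstream sequences are shown for Tcf7, Id3 and Slamf6, which were all lower in CD8 T cells under the KO label, and for the Lef1 and Bach2 start sites whose windows held the core letters bound by TCF-1 and LEF-1. They are the 250 bases before a transcription start in RefSeq on GRCm38.p6, and the capitals mark matches to the searched letters. The Id3, Lef1 and Bach2 windows shown lie inside the gene spans given above, so they are upstream of a start site and not of the whole gene. The Tcf7 window shown lies outside the span given above, but whether it holds transcribed or coding sequence of Tcf7 was not examined. Another Tcf7 window, not shown, held 1 match of CCACCC on the minus strand.
Tcf7 upstream window (chr11:52283015-52283264, minus strand): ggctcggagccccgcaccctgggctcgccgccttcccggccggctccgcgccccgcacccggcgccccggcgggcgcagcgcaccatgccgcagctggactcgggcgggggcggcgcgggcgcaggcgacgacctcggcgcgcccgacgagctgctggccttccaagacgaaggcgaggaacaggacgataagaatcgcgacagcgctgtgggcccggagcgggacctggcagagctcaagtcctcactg
Id3 upstream window (chr4:136143572-136143821, plus strand): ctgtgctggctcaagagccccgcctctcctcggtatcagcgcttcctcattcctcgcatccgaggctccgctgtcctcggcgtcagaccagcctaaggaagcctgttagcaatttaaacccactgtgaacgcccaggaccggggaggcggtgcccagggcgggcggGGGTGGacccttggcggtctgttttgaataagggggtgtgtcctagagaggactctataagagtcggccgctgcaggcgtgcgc
Slamf6 upstream window (chr1:171917212-171917461, plus strand): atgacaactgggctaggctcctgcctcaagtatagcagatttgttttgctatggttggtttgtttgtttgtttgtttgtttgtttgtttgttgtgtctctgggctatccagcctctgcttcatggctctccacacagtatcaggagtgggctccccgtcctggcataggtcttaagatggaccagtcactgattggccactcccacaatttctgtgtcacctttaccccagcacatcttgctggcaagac
Lef1 upstream window (chr3:131156044-131156293, plus strand): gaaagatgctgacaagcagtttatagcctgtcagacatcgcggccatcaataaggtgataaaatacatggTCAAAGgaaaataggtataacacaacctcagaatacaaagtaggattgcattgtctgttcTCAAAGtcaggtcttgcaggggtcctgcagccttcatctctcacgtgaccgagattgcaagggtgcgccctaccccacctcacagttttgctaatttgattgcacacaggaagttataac
Bach2 upstream window (chr4:32417185-32417434, plus strand): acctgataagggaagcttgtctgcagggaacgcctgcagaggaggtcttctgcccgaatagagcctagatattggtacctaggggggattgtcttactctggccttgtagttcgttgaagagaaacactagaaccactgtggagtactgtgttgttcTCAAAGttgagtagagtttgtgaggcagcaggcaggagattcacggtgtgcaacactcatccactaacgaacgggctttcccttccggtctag
RefSeq start sites matched 8 of the 9 genes, with 16 windows in all, and S1pr1 is named only. The letters searched on both strands were TCAAAG as the TCF and LEF core, GTAAACA as a core for FOXO factors and CCACCC as a core for KLF factors, and no match printed above overlaps another. TCAAAG was in 13.8% of 32851 windows of the same length and in 2 of the 16 windows of these genes, those of Lef1 and Bach2 above. CCACCC was in 28.1% of all windows and in 8 of the 16, with 1 match on the minus strand in the Id3 window. GTAAACA was in 3.17% of all windows and in 0 of the 16. Some of the 16 windows overlap each other, and a match describes the letters only.

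The library labelled Ythdf2 KO held 16312 barcodes with a median of 5617 unique molecular identifiers (UMIs), and the library labelled WT held 20886 with a median of 5554. Barcodes were gated by marker UMIs, which left 665 T cells with 4572500 UMIs under the KO label and 842 T cells with 5490678 UMIs under the WT label. T barcodes with 3 or more UMIs of 6 macrophage genes outnumbered them, 1060 under the KO label and 1638 under the WT label, and were set aside. In the gated T cells these 6 genes still summed to 51.4 CPM (UMIs of a gene in every 1000000 UMIs of the group) under the KO label and 58.5 CPM under the WT label. The libraries share 101 barcode sequences.

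CD8 T cells, gated on Cd8a or Cd8b1, numbered 123 under the KO label, with a median of 6568 UMIs, and 104 under the WT label, with a median of 5582. T cells with a UMI of the NK receptor genes Ncr1 or Klrb1c numbered 268 under the KO label and 307 under the WT label. Their Trac, the constant chain of the alpha-beta receptor, was 130 CPM under the KO label and 103 CPM under the WT label, where CD8 T cells held 534 CPM under the KO label and 552 CPM under the WT label. The name T therefore rests on Cd3 and other receptor chains in those cells.

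Ythdf2 itself was 45.7 CPM in T cells under the KO label and 57.2 CPM under the WT label, and in macrophages 50.3 CPM under the KO label and 49.2 CPM under the WT label. Its transcript was thus present in the library labelled Ythdf2 KO. Reads from outside a deleted stretch would leave such UMIs in place, and the deleted stretch is not given in the sources used here. Every direction below therefore rests on the label.

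In these tumours 3 of the 9 genes had their highest level in a T subset in both libraries, and 6 had it outside T cells, among the 12 gated types with at least 50 cells in each library. Tcf7, Lef1 and Il7r were the 3 with their highest level in T cells. Tcf7 led in T cells that met no subset gate, called other T cells here, at 164 CPM (95% Poisson interval 135 to 198) under the KO label and 161 CPM (137 to 188) under the WT label. Gamma-delta T cells followed with 106 CPM under the KO label and 141 CPM under the WT label, and their intervals overlapped those of other T cells. In B cells, macrophages, monocytes, neutrophils and plasmacytoid DC of both libraries Tcf7 was under 7 CPM.

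Lef1 was between 57.5 CPM and 78.4 CPM in CD8, gamma-delta and other T cells of both libraries, and the intervals of these subsets overlapped. NK cells with granzymes C to G also held Lef1, at 36.7 CPM under the KO label and 49.4 CPM under the WT label. Plasmacytoid DC held no Lef1 UMI in either library, which allows up to 1.84 CPM under the KO label and 6.15 CPM under the WT label (3 counts).

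Il7r was highest in gamma-delta T cells among the 12 types, with mature dendritic cells next. Gamma-delta T cells held 505 CPM of Il7r (411 to 614) under the KO label and 607 CPM (534 to 687) under the WT label. Mature dendritic cells, the migratory cells marked by Ccr7 and Fscn1, held 496 CPM (459 to 535) under the KO label and 501 CPM (474 to 529) under the WT label, so the intervals overlapped under the KO label and lay apart under the WT label. Macrophages held 219 CPM under the KO label and 285 CPM under the WT label, near CD8 T cells with 220 CPM under the KO label and 267 CPM under the WT label, so Il7r did not separate CD8 T cells from macrophages. NK cells with granzymes C to G held the lowest Il7r of the 12 types, 6.55 CPM under the KO label and 6.97 CPM under the WT label.

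B cells held the highest level of Slamf6, S1pr1 and Bach2. Bach2, which B cells need for class switching, was 164 CPM (138 to 194) in B cells under the KO label and 90.1 CPM (61.2 to 128) under the WT label. CD8 T cells held 36.2 CPM of Bach2 under the KO label and 36.9 CPM under the WT label. S1pr1 was 173 CPM in B cells under the KO label and 218 CPM under the WT label, and gamma-delta T cells came next with 147 CPM under the KO label and 119 CPM under the WT label. Slamf6 was 68.9 CPM in B cells under the KO label and 108 CPM under the WT label. Its interval in WT-labelled B cells (75.7 to 148) lay apart from the next type, CD8 T cells at 48.7 CPM. Under the KO label the intervals of B cells overlapped those of gamma-delta T cells for Slamf6 (52.2 to 89.2 and 8.20 to 58.9) and for S1pr1 (146 to 204 and 98.1 to 210).

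Among the 12 types Id3 led in B cells under the KO label, at 149 CPM (123 to 177), and in plasmacytoid DC under the WT label, at 162 CPM (128 to 202). Dendritic cells gated on Cd209a, 25 under the KO label and 81 under the WT label, were too few for this ranking. They held 87.9 CPM of Id3 (51.2 to 141) under the KO label and 197 CPM (163 to 236) under the WT label, above plasmacytoid DC there. Monocytes held 58.4 CPM of Id3 under the KO label and 60.8 CPM under the WT label, so Id3 UMIs were not restricted to lymphocytes.

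Among the ranked types Bcl2 and Satb1 led in NK cells and B cells. Bcl2 was 527 CPM (482 to 574) in NK cells without granzymes C to G under the KO label and 438 CPM (400 to 479) under the WT label, apart from the next type in both libraries. NK cells with these granzymes held 195 CPM of Bcl2 under the KO label and 210 CPM under the WT label. Of these types, NK cells without granzymes C to G held the most Satb1 under the KO label, at 422 CPM (382 to 465). Under the WT label B cells held the most Satb1, at 395 CPM (332 to 468). Conventional CD4 T cells, 21 under the KO label and 40 under the WT label, were too few for this ranking. They held 501 CPM of Satb1 (343 to 708) under the KO label, above these NK cells but with overlapping intervals. Under the WT label they held 352 CPM (264 to 459), below B cells. Monocytes held little Satb1, 10.5 CPM under the KO label and 17.1 CPM under the WT label.

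**Figure D1:**
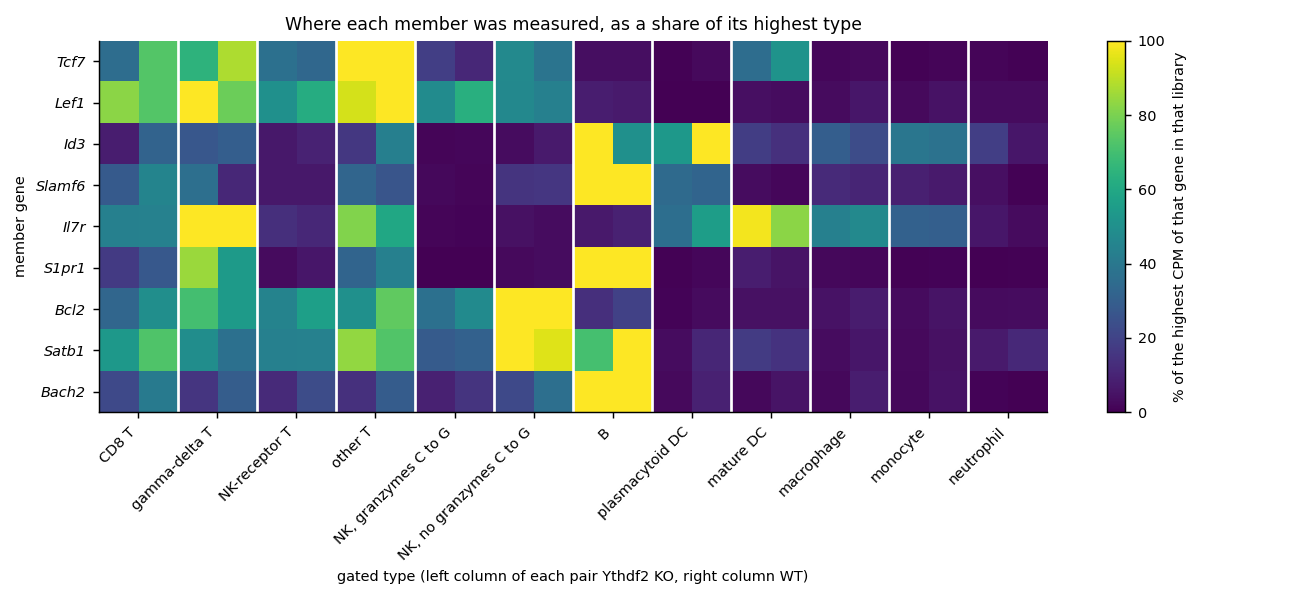
Colour gives the CPM of each gene (rows) in each of the 12 gated types (pairs of columns, Ythdf2 KO left and WT right) as a percentage of that gene's highest type in the same library. The brightest cells of Slamf6, S1pr1 and Bach2 are in B cells, those of Bcl2 in NK cells without granzymes C to G, and only Tcf7, Lef1 and Il7r are brightest in T subsets.

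Tcf7 was found without Lef1 in mature dendritic cells. It was 58.5 CPM (79 UMIs, 46.4 to 73.0) in mature dendritic cells under the KO label and 82.6 CPM (216 UMIs, 72.0 to 94.4) under the WT label. Lef1 was 2.96 CPM in these cells under the KO label and 2.68 CPM under the WT label. At least 1 Tcf7 UMI was in 43 of 215 mature dendritic cells under the KO label and in 107 of 411 under the WT label. The 43 barcodes under the KO label held 2243 CPM of Ccr7 and the 107 under the WT label 2180 CPM, close to the mature dendritic cells without a Tcf7 UMI at 2404 CPM under the KO label and 2201 CPM under the WT label. The 43 under the KO label held 0 UMIs of Trac and 0 of Cd3e, and the 107 under the WT label held 2 of Trac and 1 of Cd3e, so these defining T cell markers were at or near 0. The gate of mature dendritic cells asks for a Ccr7 UMI and sets aside barcodes that also meet the T cell gate. The Ccr7, Trac and Cd3e values therefore follow in part from the gate. The receptor chain Trbc2 was 18.3 CPM in the 43 under the KO label and 16.0 CPM in the 107 under the WT label, close to 15.8 CPM under the KO label and 16.1 CPM under the WT label in the mature dendritic cells without a Tcf7 UMI.

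Across all gated T cells 3 of the 9 genes were lower under the KO label by the fold used here, and none was higher. Past the fold means a CPM ratio, KO label over WT label, of at least 1.5 or its inverse, with at least 20 UMIs over both libraries. Among all 10465 genes with that many UMIs, 6.89% were as much lower and 3.84% as much higher. Id3 was 13.3 CPM (61 UMIs) under the KO label and 31.5 CPM (173 UMIs) under the WT label, a ratio of 0.423 (0.311 to 0.570). S1pr1 was 24.7 CPM under the KO label and 42.3 CPM under the WT label, a ratio of 0.585 (0.463 to 0.735). Slamf6 was 12.2 CPM under the KO label and 18.6 CPM under the WT label, a ratio of 0.659 (0.467 to 0.922), and the intervals of Slamf6 and S1pr1 reach inside the fold.

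The other 6 genes were closer between the libraries. Tcf7 was 75.2 CPM under the KO label and 86.1 CPM under the WT label, a ratio of 0.873 (0.758 to 1.01). Lef1 was 49.4 CPM under the KO label and 55.2 CPM under the WT label, a ratio of 0.896 (0.751 to 1.07). Il7r had a ratio of 0.875 (0.801 to 0.957), Bcl2 of 0.896 (0.825 to 0.972), Satb1 of 1.06 (0.971 to 1.15) and Bach2 of 0.979 (0.750 to 1.28). The median log2 ratio of the 9 was -0.19, against -0.03 over all genes tested. In a mixture of T subsets, fewer cells of a subset and less RNA per cell cannot be told apart. With the same subset weights in both libraries the ratios were 0.435 for Id3, 0.643 for S1pr1 and 0.610 for Slamf6. Without the T cells that hold an NK receptor UMI, the Tcf7 ratio was 0.713. With the T barcodes that carry macrophage RNA kept, the Id3 ratio was 0.763, short of the fold.

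**Figure D2:**
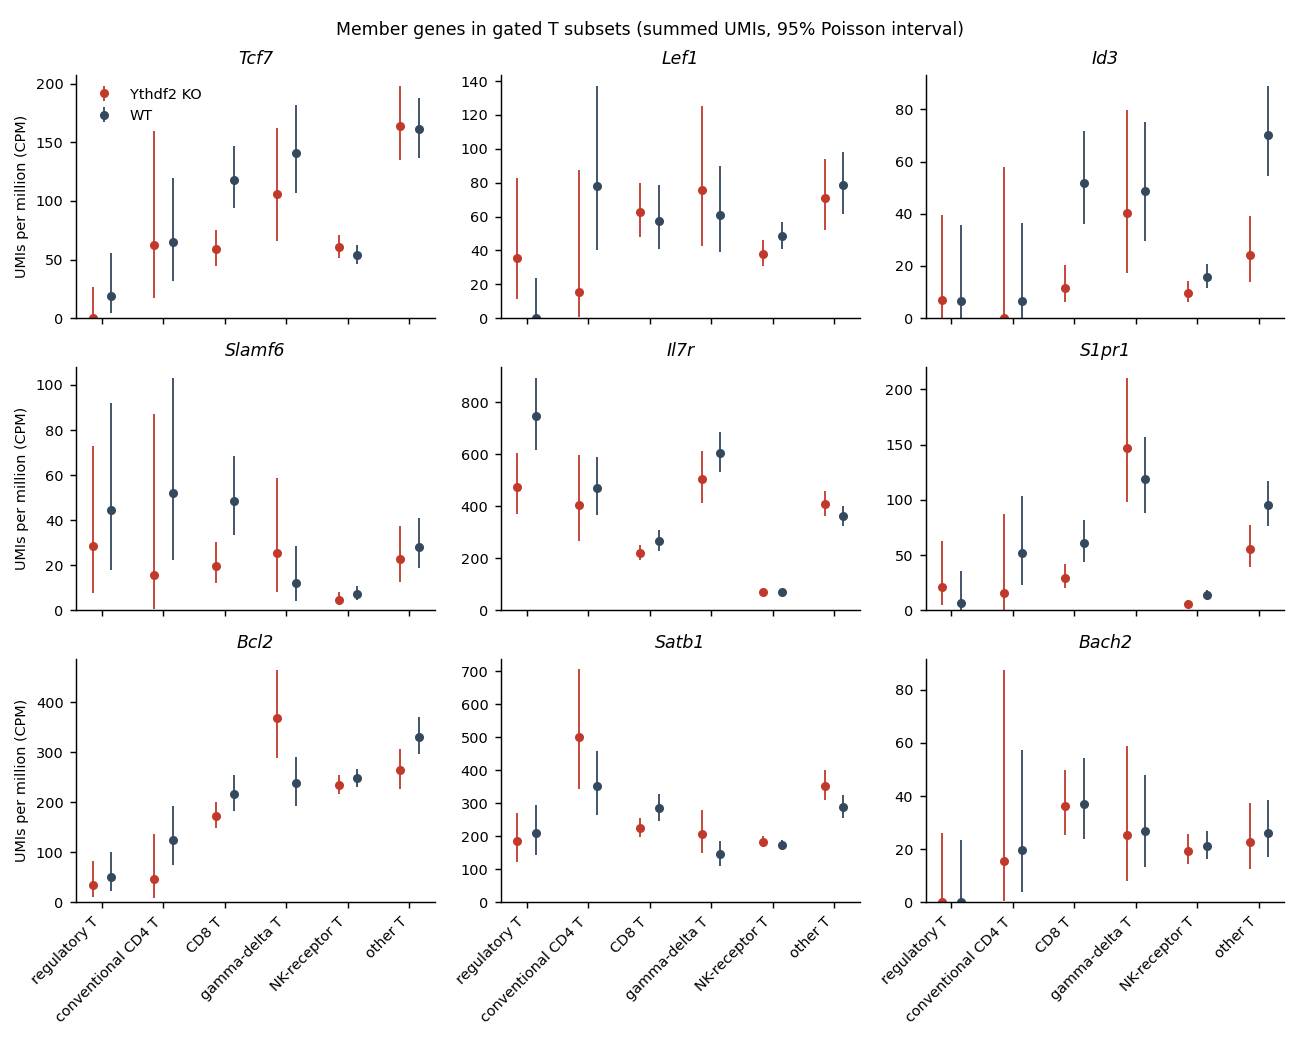
Each panel gives 1 gene in CPM of summed UMIs in the 6 gated T subsets, with Ythdf2 KO (red) left of WT (dark) and bars for the 95% Poisson interval. In CD8 T cells the red points of Tcf7, Id3, Slamf6 and S1pr1 lie below the dark points with no overlap of intervals, while the points of Lef1 and Bach2 lie close together.

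CD8 T cells, the killer subset, held less Tcf7, Id3, Slamf6 and S1pr1 in the library labelled Ythdf2 KO, while Lef1 and Bach2 were near each other in both libraries. Tcf7 was 58.6 CPM (60 UMIs, 44.8 to 75.5) under the KO label and 118 CPM (80 UMIs, 93.6 to 147) under the WT label, a ratio of 0.497 (0.350 to 0.703). Id3 was 11.7 CPM (12 UMIs in 7 cells) under the KO label and 51.6 CPM (35 UMIs in 19 cells) under the WT label, a ratio of 0.227 (0.107 to 0.448). Both groups of reads are small, and the intervals of the levels do not overlap between the libraries. Slamf6 was 19.5 CPM (20 UMIs in 16 cells) under the KO label and 48.7 CPM (33 UMIs in 21 cells) under the WT label, a ratio of 0.402 (0.218 to 0.721). S1pr1 was 29.3 CPM (30 UMIs in 16 cells) under the KO label and 60.5 CPM (41 UMIs in 25 cells) under the WT label, a ratio of 0.485 (0.292 to 0.796). So 4 of 9 genes were past the fold, all lower, where 13.3% of the 6625 genes tested in CD8 T cells were as much lower and 13.1% as much higher.

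Lef1, the close relative of Tcf7, was 62.6 CPM in CD8 T cells under the KO label and 57.5 CPM under the WT label, a ratio of 1.09 (0.719 to 1.66). Bach2 was 36.2 CPM under the KO label and 36.9 CPM under the WT label, a ratio of 0.981 (0.575 to 1.70). These intervals reach past the fold, so equal levels are not shown. Il7r (0.824), Bcl2 (0.798) and Satb1 (0.789) had ratios between these and the 4 lower genes. The median log2 ratio of the 9 genes in CD8 T cells was -0.34, against 0.03 over all genes tested.

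The 6 macrophage genes summed to 38.1 CPM in CD8 T cells under the KO label and 53.1 CPM under the WT label. In the 91 CD8 T cells under the KO label and 72 under the WT label with no UMI of these genes, the Tcf7 ratio was 0.419. Leaving out the cell with the most UMIs of the gene in each library, a choice made after the data were seen, gave 0.508 for Tcf7, 0.169 for Id3, 0.375 for Slamf6 and 0.492 for S1pr1. Leaving out the shared barcodes gave 0.503 for Tcf7, 0.234 for Id3, 0.393 for Slamf6 and 0.499 for S1pr1. With the barcodes that carry macrophage RNA kept, Id3 was at 0.567. Weighting every cell equally moved Id3 to 0.423 and S1pr1 to 0.737, which is no longer past the fold. Asking for 2 UMIs of Cd8a and Cd8b1, also chosen after the data were seen, moved Id3 to 0.359 and S1pr1 to 0.689, short of the fold.

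CD8 T barcodes set aside for macrophage RNA, 211 under the KO label and 298 under the WT label, are other barcodes of the same libraries. In them Tcf7 was 21.8 CPM under the KO label and 36.3 CPM under the WT label, a ratio of 0.600 (0.449 to 0.796). Slamf6 had a ratio of 0.556 (0.368 to 0.827) and S1pr1 one of 0.563 (0.391 to 0.801). Bach2 was 10.9 CPM under the KO label and 16.9 CPM under the WT label, a ratio of 0.643 (0.421 to 0.968), past the fold here and not in CD8 T cells without macrophage RNA. Id3 had a ratio of 0.681 (0.518 to 0.891), short of the fold, in barcodes whose 6 macrophage genes summed to 3130 CPM under the KO label and 3538 CPM under the WT label. So 4 of 9 genes were past the fold, all lower, where 7.63% of 10274 genes were as much lower and 4.85% as much higher. Over all T barcodes set aside for macrophage RNA, 0 of 9 genes were past the fold, where 5.41% of genes were as much lower and 3.28% as much higher.

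**Figure D3:**
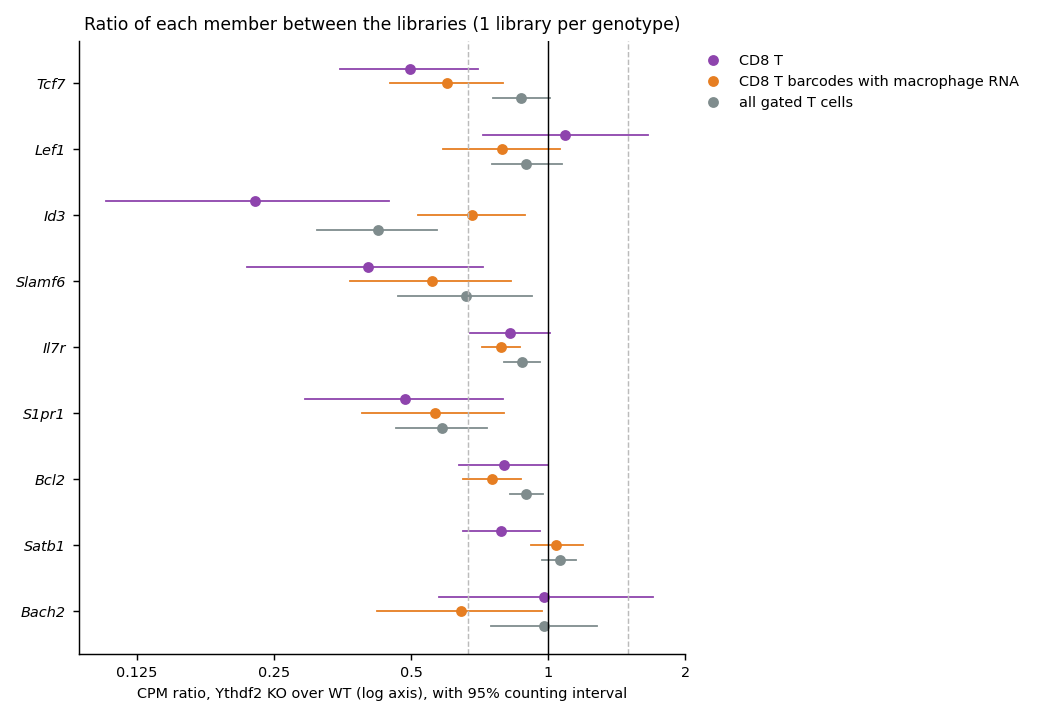
Points give the CPM ratio, Ythdf2 KO over WT, on a log axis with 95% counting intervals, for CD8 T cells (purple), CD8 T barcodes with macrophage RNA (orange) and all gated T cells (grey), and dashed lines mark the 1.5-fold limits. Tcf7, Slamf6 and S1pr1 lie left of the dashed line in both sets of CD8 T barcodes, and Id3 does so in the CD8 T cells and in all gated T cells.

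Shares of CD8 T cells with a UMI separated the libraries less than the levels did. After each cell was thinned to 1000 UMIs, Tcf7 was detected in 11.6% (Clopper-Pearson interval 6.47 to 18.7) of 121 CD8 T cells under the KO label and in 12.6% (6.89 to 20.6) of 103 under the WT label. At 2000 UMIs the shares were 16.1% under the KO label and 26.0% under the WT label, and without thinning 25.2% under the KO label and 33.7% under the WT label. Macrophages, which should lack Tcf7, showed 0.254% under the KO label and 0.234% under the WT label at 1000 UMIs, with median depths of 5624 UMIs under the KO label and 4832 UMIs under the WT label. The thinned Tcf7 shares do not differ beyond counting error, and no order is read from them.

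Thinned shares of the other lower genes rested on 9 cells or fewer per library. S1pr1 was in 4.96% of CD8 T cells under the KO label and 8.74% under the WT label, and Slamf6 in 4.13% under the KO label and 3.88% under the WT label. Id3 was in 1.65% (0.201 to 5.84) under the KO label and 4.85% (1.59 to 11.0) under the WT label. Neutrophils, with median depths of 1876 UMIs under the KO label and 2118 UMIs under the WT label, gave the background for Id3, 0.697% (0.256 to 1.51) under the KO label and 1.17% (0.431 to 2.53) under the WT label. The Id3 intervals of CD8 T cells overlap those of neutrophils in both libraries at 1000 UMIs, and no order is read from these shares. At 2000 UMIs the Id3 share was 3.39% (0.931 to 8.45) in CD8 T cells and 2.31% (1.06 to 4.34) in neutrophils under the KO label, and 7.29% (2.98 to 14.4) in CD8 T cells and 0.673% (0.0817 to 2.41) in neutrophils under the WT label. CD8 T cells thus stood apart from neutrophils under the WT label at that depth and not under the KO label. In CPM, neutrophils held 27.7 (21.1 to 35.8) of Id3 under the KO label and 9.93 (5.29 to 17.0) under the WT label, above CD8 T cells under the KO label and below them under the WT label. For S1pr1 the background was 0 of 861 neutrophils under the KO label, which allows a share of up to 0.348% by a floor of 3 counts (Clopper-Pearson limit 0.428%), and 0 of 512 under the WT label, which allows 0.586% (0.718%).

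In other T cells and NK-receptor T cells Id3 and S1pr1 were lower past the fold, and Tcf7 was not. Other T cells, 172 under the KO label and 236 under the WT label, held 24.1 CPM of Id3 under the KO label and 70.0 CPM under the WT label, a ratio of 0.344 (0.186 to 0.600). Their S1pr1 was 55.7 CPM under the KO label and 95.1 CPM under the WT label, a ratio of 0.586 (0.389 to 0.867). Their Tcf7 had a ratio of 1.02 (0.791 to 1.31). In other T barcodes set aside for macrophage RNA the S1pr1 ratio turned round to 1.31 (0.980 to 1.76), while Id3 was lower at 0.596 (0.459 to 0.770). The 2 of 9 genes past the fold stand beside 9.93% of all genes as much lower and 8.64% as much higher. In NK-receptor T cells 3 of 9 genes were lower past the fold, S1pr1 with a ratio of 0.391 (0.192 to 0.742), Id3 with 0.618 (0.363 to 1.03) and Slamf6 with 0.631 (0.276 to 1.36), where 7.56% of all genes were as much lower and 4.82% as much higher. In NK-receptor T barcodes with macrophage RNA S1pr1 was lower at 0.512 (0.380 to 0.681), while Id3 at 0.972 and Slamf6 at 0.889 were short of the fold. In NK-receptor T cells with no UMI of the 6 macrophage genes the Id3 ratio was 0.237, from 7 UMIs under the KO label and 37 under the WT label. The difference between subsets was not tested.

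In gamma-delta T cells Bcl2 was the gene past the fold. It was 369 CPM in 54 gamma-delta T cells under the KO label and 238 CPM in 119 under the WT label, a ratio of 1.55 (1.13 to 2.12). It was 1 of 7 genes with enough UMIs, where 8.98% of all genes were as much higher and 19.8% as much lower. In gamma-delta barcodes set aside for macrophage RNA the Bcl2 ratio was 0.802, and 4 of 8 genes were lower past the fold and 0 higher, where 16.1% of all genes were as much lower and 9.69% as much higher. The 4 were Tcf7 at 0.376 (0.144 to 0.831), Id3 at 0.425 (0.162 to 0.948), S1pr1 at 0.453 (0.156 to 1.08) and Lef1 at 0.582 (0.173 to 1.56), each with 5 to 7 UMIs under the KO label. Regulatory T cells, 27 under the KO label and 36 under the WT label, held 476 CPM of Il7r under the KO label and 748 CPM under the WT label, a ratio of 0.637 (0.465 to 0.867). Too few for the ranking of types, they were above gamma-delta T cells in Il7r under the WT label (607 CPM) and below them under the KO label (505 CPM). Their name rests on a Foxp3 UMI with no Cd8a or Cd8b1 UMI, and NK receptor UMIs were allowed. Their Gzmb was 5345 CPM under the KO label and 6012 CPM under the WT label. In regulatory T barcodes set aside for macrophage RNA the Il7r ratio was 0.932 (0.858 to 1.01), short of the fold, and in regulatory T cells with no UMI of the 6 macrophage genes it was 0.448. Il7r was 1 of 2 genes with enough UMIs there, where 14.3% of all genes were as much lower and 13.4% as much higher. Conventional CD4 T cells, 21 under the KO label and 40 under the WT label, gave a Bcl2 ratio of 0.379 (0.0719 to 1.29) from 3 UMIs under the KO label and 19 under the WT label. Bcl2 was 1 of 3 genes with enough UMIs there, where 18.5% of all genes were as much lower and 15.7% as much higher.

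Within CD8 T cells, with all UMIs and no thinning, the other 8 genes together had higher levels where Tcf7 was detected, in both libraries. A Tcf7 UMI was in 31 of 123 CD8 T cells under the KO label and in 35 of 104 under the WT label. In these cells the other 8 genes together were 2.57 times (2.21 to 2.97) as high as in cells without a Tcf7 UMI under the KO label, and 2.47 times (2.12 to 2.87) as high under the WT label. Under the KO label S1pr1 was 130 CPM with a Tcf7 UMI and 7.16 CPM without, and under the WT label 150 CPM with and 23.0 CPM without. Lef1 was 157 CPM with and 41.8 CPM without under the KO label, and 140 CPM with and 23.0 CPM without under the WT label. Il7r was the least separated of the 8, with ratios of 1.43 under the KO label and 1.51 under the WT label. The intervals of Id3 under the KO label and of Bach2 under the WT label include equal levels. Trac was 0.882 times as high with a Tcf7 UMI under the KO label and 0.971 times under the WT label.

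CD8 T cells with a Tcf7 UMI held less effector RNA than those without. The 20 effector and exhaustion genes together were 0.244 times (0.226 to 0.263) as high with a Tcf7 UMI as without under the KO label, and 0.305 times (0.282 to 0.330) as high under the WT label. Gzmb, the granule protease, was 492 CPM with and 5931 CPM without a Tcf7 UMI under the KO label, and 535 CPM with and 2974 CPM without under the WT label. Ifng, the cytokine interferon gamma, was 64.9 CPM with and 2227 CPM without under the KO label, and 15.0 CPM with and 971 CPM without under the WT label. The Ifng levels with a Tcf7 UMI rest on 12 UMIs under the KO label and 3 under the WT label.

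The comparison had been planned on thinned cells, since deeper cells hold more UMIs of every gene. After thinning to 1000 UMIs a Tcf7 UMI was left in 14 CD8 T cells under the KO label and 13 under the WT label. The effector ratio was then 0.260 (0.192 to 0.344) under the KO label and 0.157 (0.0976 to 0.238) under the WT label. The ratio of the other 8 genes was 2.77 (1.80 to 4.17) under the KO label and 1.30 (0.773 to 2.08) under the WT label, and the second interval includes equal levels. Of conventional CD4 T cells 3 of 21 under the KO label and 6 of 40 under the WT label held a Tcf7 UMI, too few to describe.

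**Figure D4:**
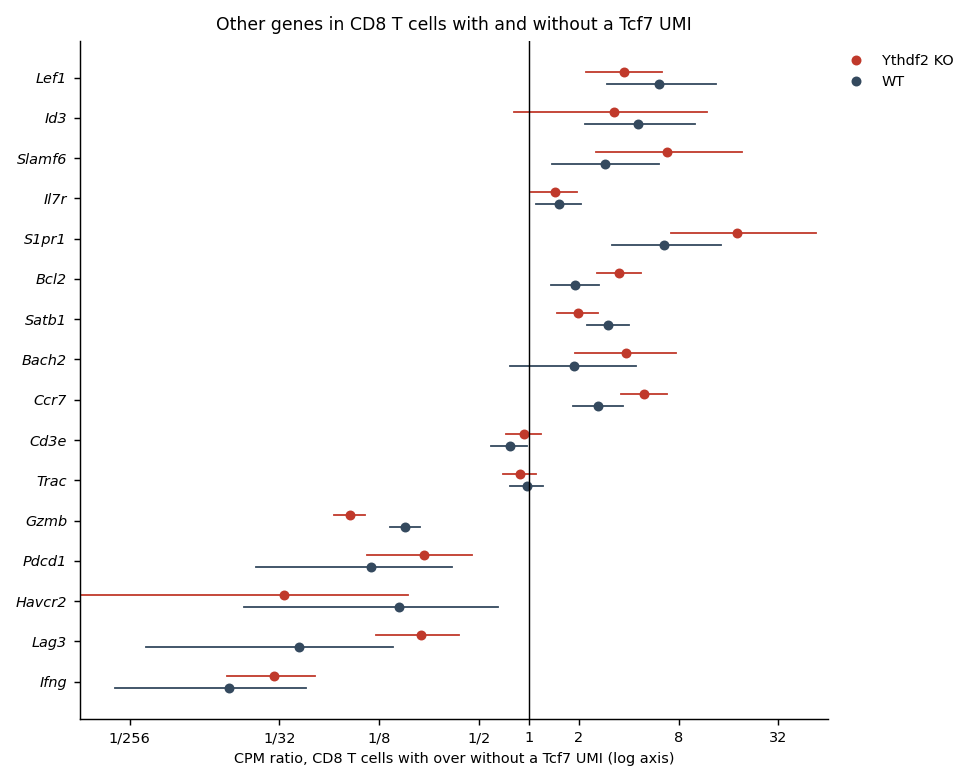
Points give, for each gene (rows), the CPM ratio of CD8 T cells with over those without a Tcf7 UMI on a log axis, with 95% counting intervals, in the library labelled Ythdf2 KO (red, upper) and the library labelled WT (dark, lower). The other 8 genes and Ccr7 lie right of 1, Cd3e and Trac lie near 1, and Gzmb, Pdcd1, Havcr2, Lag3 and Ifng lie left of 1 in both libraries. All UMIs were used, without thinning.

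Across all gated T cells the other genes of the same pathways were past the fold in counts of 0 to 2 a list, where 6.89% of all genes were lower and 3.84% higher. Of 22 companions of naive and memory T cells 21 had enough UMIs, 0 were higher and 1 was lower, with a median log2 ratio of -0.12. The lower gene was Il6st, the shared signalling chain of the interleukin 6 receptor family, with a ratio of 0.588. Klf3 followed at 0.674, and the highest were Als2cl at 1.47 and Igfbp4 at 1.20. Of 8 genes of interleukin 7 receptor signalling 0 were higher and 1 was lower, the feedback inhibitor Socs2 at 0.664, with a median of -0.25. Stat5a followed at 0.756, and the kinase Jak3 at 1.16 and the common gamma chain Il2rg at 1.07 were the highest. Of 12 BCL2 family genes 1 was higher, Bcl2a1d at 1.65, and 0 were lower, with a median of 0.03. Bcl2a1d and Bcl2a1b (1.48) are near-identical copies whose reads the counting could split, so their values are uncertain, and the lowest of the family were the pro-apoptotic Bbc3 at 0.751 and Bcl2l11 at 0.768.

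Of 11 migration and homing genes 10 had enough UMIs, 0 were higher and 1 was lower, the tissue-retention integrin Itgae at 0.425. The chemokine receptor Cxcr4 followed at 0.701, and Cxcr6 at 1.20 and S1pr4 at 1.19 were the highest. Of 8 SLAM family genes 0 were past the fold, with Slamf7 and the adaptor Sh2d1a at 1.18 the highest, and Sh2d1b1 at 1.02 and Cd244a at 1.03 the lowest. Of 20 effector and exhaustion genes 2 were higher and 0 lower, Ifng at 2.55 and the inhibitory receptor Havcr2 at 2.01, and the lowest were Ccl5 at 0.830 and Gzma at 0.855. The median log2 ratio was -0.18 for migration and homing, 0.14 for the SLAM family and 0.16 for effector and exhaustion, against -0.03 over all genes tested.

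The same lists were also described within CD8 T cells, a choice made after the data were seen, where 13.3% of all genes were lower past the fold and 13.1% higher. Of 18 companion genes with enough UMIs 0 were higher and 6 were lower, with a median log2 ratio of -0.47, against 0.03 over all genes tested. Il6st was 6.84 CPM under the KO label and 35.4 CPM under the WT label, a ratio of 0.193 (0.0703 to 0.462). Klf3 was 19.5 CPM under the KO label and 59.0 CPM under the WT label, a ratio of 0.331 (0.184 to 0.580). The costimulatory receptor Cd27 at 1.20 and the cytokine Ltb at 1.15 were the highest of that list. Of 18 effector and exhaustion genes 10 were higher and 2 were lower, with a median of 0.72. Havcr2 was 135 CPM under the KO label and 45.7 CPM under the WT label, a ratio of 2.95 (1.99 to 4.51), while Tox, a factor of exhausted T cells, was lower at 0.486 (0.267 to 0.871), as was Ccl5 at 0.565. The chemokine receptor Cx3cr1 had the highest ratio, 6.63 (1.61 to 58.5), from 20 UMIs under the KO label and 2 under the WT label.

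Of 9 migration and homing genes in CD8 T cells 1 was higher and 5 were lower, with a median log2 ratio of -0.64. For this and the lists below, 13.1% of all genes in CD8 T cells were as much higher and 13.3% as much lower. Cxcr6, a receptor of tissue T cells, was 218 CPM under the KO label and 108 CPM under the WT label, a ratio of 2.02 (1.55 to 2.67). Cxcr4 was 41.1 CPM under the KO label and 121 CPM under the WT label, a ratio of 0.339 (0.228 to 0.498), and Cxcr3 had a ratio of 0.457. Ccr7 and Klf2 stand both in this list and among the companions. The other lists held 0 to 2 such genes in each direction, and these counts are not read as a result. Of 8 interleukin 7 receptor signalling genes 0 were higher and 1 was lower, Socs2 at 0.515, with a median of -0.35. Of 7 SLAM family genes 1 was higher, Cd244a at 1.66, and 0 were lower, with a median of 0.28. Of 10 BCL2 family genes 2 were higher, Bcl2a1d at 2.39 and Bcl2a1b at 1.98, and 1 was lower, Bbc3 at 0.414, with a median of -0.23.

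In B cells 2 of 7 genes were past the fold higher and 2 lower, where 20.5% of all genes were as much higher and 10.0% as much lower. Id3 had a ratio of 1.83 (1.20 to 2.86), and a single B cell held 33 of its 123 UMIs under the KO label. Bach2 had a ratio of 1.82 (1.23 to 2.79). Slamf6 was lower at 0.640 (0.416 to 0.996) and Il7r at 0.634 (0.344 to 1.20). A single B cell held 13 of the 29 Il7r UMIs under the KO label, and 1 held 9 of the 19 under the WT label. In plasmacytoid DC 3 of 4 genes were lower and 0 higher, where 23.7% of all genes were as much lower and 30.6% as much higher. They were Id3 at 0.488 (0.366 to 0.654), Il7r at 0.538 (0.443 to 0.654) and Satb1 at 0.341 (0.182 to 0.645). The 6 macrophage genes in plasmacytoid DC summed to 118 CPM under the KO label and 373 CPM under the WT label. Siglech, a marker of the gate itself, was 967 CPM under the KO label and 1832 CPM under the WT label, so the gated cells differed in a defining gene as well. The part of either difference in the result was not tested.

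NK cells with granzymes C to G held more Tcf7 in the library labelled Ythdf2 KO, where CD8 T cells held less. Tcf7 was 30.5 CPM (261 UMIs) in 730 such cells under the KO label and 18.0 CPM (315 UMIs) in 1410 under the WT label, a ratio of 1.70 (1.43 to 2.0). In NK barcodes set aside for macrophage RNA the Tcf7 ratio was 1.19 (0.958 to 1.48), and in NK cells without granzymes C to G it was 1.25 (0.888 to 1.76), both short of the fold. Tcf7 was the 1 of 8 genes past the fold in NK cells with granzymes C to G, where 3.48% of all genes were as much higher and 6.50% as much lower. Lef1 in the same cells was 36.7 CPM under the KO label and 49.4 CPM under the WT label, in the other direction. In macrophages 4 of 9 genes were lower past the fold, where 7.15% of all genes were as much lower and 3.70% as much higher, and 3 of the 4, Tcf7, Lef1 and Bach2, were under 8 CPM in both libraries. The fourth, Satb1, was 14.3 CPM under the KO label and 23.6 CPM under the WT label, a ratio of 0.606 (0.529 to 0.694). In monocytes 4 of 9 genes were lower as well, Tcf7, Lef1, S1pr1 and Satb1, where 8.76% of all genes were as much lower and 3.25% as much higher.

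For each gene the genes with the most similar levels across the 12 types and both libraries were found by Pearson's r of log2(CPM + 1) over 24 points, among 13464 genes. The points share libraries and depth, so r is a description. Nearest to Tcf7 were Tnfrsf18 (0.955), Ccnd2 (0.943) and Vgll4 (0.937), and nearest to Lef1 were Il27ra (0.968), Lck (0.967) and Skap1 (0.965). Bcl2 was nearest to Gimap4 (0.976), Gimap5 (0.973) and Gimap3 (0.966), and Satb1 to Ppp1r16b (0.942), Rapgef6 (0.927) and Gimap6 (0.926). The nearest to Il7r were Il6st (0.893), Tnfaip8 (0.870) and Tor1aip2 (0.839). Id3 was nearest to Tnfrsf13b (0.894), Snx30 (0.885) and Pikfyve (0.829), and Slamf6 to Maml2 (0.859), Efcab14 (0.857) and Heg1 (0.846). S1pr1 was nearest to Rbm33 (0.901), Mier1 (0.886) and Cpm (0.884), and Bach2 to Sf3b2 (0.920), Chchd10 (0.919) and Rbm48 (0.918). Among the 9 genes themselves Lef1 and Bcl2 were the most alike (0.95), and Tcf7 and Lef1 reached 0.82.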

How the data were processed

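CD45+ cells of 2 mouse tumour samples were profiled with a 10x Genomics 5′ kit, per the labels' protocols. The matrices as deposited give whole UMI counts for every barcode, not normalized by the authors. Tools named by the submitters' processing notes are Cell Ranger 5.0.1 with mm10, and Seurat 4.0.4, but per the file headers the counts came from Cell Ranger 6.1.1. The conflict was not resolved.

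Kept barcodes had 200 genes or more, 500 UMIs or more and mitochondrial UMIs up to 10%, which left 15844 under the KO label and 20415 under the WT label. T cells needed 2 UMIs of Cd3d, Cd3e and Cd3g and 1 of a receptor constant gene, and the other types 1 to 3 UMIs of their markers. Barcodes of 2 lineages beside the lymphocytes with macrophage RNA, 1912 under the KO label and 1950 under the WT label, were set aside, and 2052 under the KO label and 2623 under the WT label met no gate. Removal of the 8% highest Scrublet doublet scores was an alternative.

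UMIs were summed per type and library. Intervals at the 95% level are exact Poisson for CPM, Clopper-Pearson for shares and conditional binomial for ratios. Those for CPM and ratios were tried on simulated Poisson counts, which checks the code only and leaves out UMIs that gather in single cells. All 9 genes are named, and of each list the 2 highest and 2 lowest ratios. The genes, gates and lists were chosen with earlier results of these data known. Software was scanpy 1.11.5, scipy 1.17.1, numpy 2.4.6, pandas 2.3.3 and matplotlib 3.10.9 under Python 3.11.15.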

Additional observations from a re-analysis of the deposited data

Results flagged for a closer look

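For 4 of the 9 genes the ratio, KO label over WT label, was past the 1.5-fold limit in opposite directions in different gated types with at least 50 cells in each library. Of the 12673 genes with at least 20 UMIs in 2 or more of these 12 types, 20.2% did the same. Of the 6757 genes with at least as many such types as the least covered of the 9, 28.2% did. Id3 and Il7r had more such types than that, so this share is not matched to each of the 9. With 1 library per genotype these differences between types were not tested. Tcf7 was higher in the library labelled Ythdf2 KO in NK cells with granzymes C to G (ratio 1.70) and lower in CD8 T cells (0.497), macrophages (0.656) and monocytes (0.396). It was 1.19 (0.958 to 1.48) in NK barcodes with macrophage RNA and 1.25 (0.888 to 1.76) in NK cells without granzymes C to G, both short of the fold. In macrophages and monocytes Tcf7 was at most 4.0 CPM in either library. Id3 was higher in B cells (1.83) and neutrophils (2.79) and lower in CD8 T cells (0.227), NK-receptor T cells (0.618), other T cells (0.344) and plasmacytoid DC (0.488). In neutrophils under the KO label 1 cell held 17 of the 59 Id3 UMIs, and 18 of 891 cells had a UMI, against 13 UMIs in 12 of 521 cells under the WT label. Il7r was higher in neutrophils (1.72) and lower in B cells (0.634) and plasmacytoid DC (0.538). Under the KO label 1 neutrophil held 12 of the 67 Il7r UMIs and 1 B cell 13 of the 29. Under the WT label 1 B cell held 9 of the 19. Bach2 was higher in B cells (1.82) and lower in macrophages (0.463), where it was 3.39 CPM under the KO label and 7.33 CPM under the WT label.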

How the results depend on the processing

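No paired analysis was possible because each genotype is 1 library. The ratios of Tcf7, Id3, Slamf6 and S1pr1 in CD8 T cells were below 1 under each of the 13 alternatives, from 0.419 to 0.654 for Tcf7, 0.169 to 0.681 for Id3, 0.331 to 0.556 for Slamf6 and 0.371 to 0.737 for S1pr1. Leaving out cells with an Ncr1 or Klrb1c UMI, or the highest Scrublet scores, removed no CD8 T cell. The same 123 under the KO label and 104 under the WT label were left, so these settings say nothing on the CD8 ratios. Of all ratios, shares and counts, 111 main and 448 single values moved by no more than counting error or 1.5 times, and 10 and 51 moved further. Over all gated T cells, Id3 moved to 0.763 when T barcodes with macrophage RNA were kept and to 0.841 in those barcodes alone. Without cells holding an Ncr1 or Klrb1c UMI, Tcf7 moved to 0.713 and Bcl2 to 0.823. Bcl2 was 0.824 in the barcodes with macrophage RNA alone, and Satb1 was 1.19 as a mean over cells. In the barcodes with macrophage RNA alone, 2 ratios were reversed, Bcl2 in gamma-delta T cells to 0.802 and S1pr1 in other T cells to 1.31, and the cause was not tested. Genes past the fold in all gated T cells, 402 higher and 721 lower, were 199 and 362 with at least 50 UMIs and 997 and 1477 with at least 5. Their shares among the genes tested at these other limits were not computed. Depth limits the smaller subsets, since regulatory and conventional CD4 T cells gave enough UMIs for 2 and 3 of the 9 genes. The barcodes with macrophage RNA alone, the stricter Cd8 gate and the removal of 1 cell were chosen after seeing the data.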
